A study of Homo sapiens with 8 samples.

Results

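Nuclear lamina and envelope genes were followed through 4 conditions of IMR90, a strain of human fetal lung fibroblasts. The 10 genes were taken by symbol from the 28265 genes of the deposited count tables: the lamins LMNA, LMNB1 and LMNB2, the inner membrane proteins LBR, TMPO, EMD and LEMD3, the chromatin linker BANF1, and the LINC complex proteins SUN1 and SUN2. All were measured by factory RNA-Seq, which sequences nascent RNA still attached to transcription factories after most chromatin is removed, and each condition had 2 libraries. Control cells were low-passage and titled "young", with no agent named. ICM (inflachromene, a small molecule that binds the HMGB1 and HMGB2 proteins) had been given to low-passage cells for 3 or 6 days. The last condition is labelled MetaICM, and neither the labels nor the study's methods say what was done to those cells, so its values are given under that label only. All 4 conditions come from the same cell strain and the labels name no genetic change, but whether 2 libraries of a condition come from separate cultures is not stated, so p-values measure the spread between libraries, which may be technical.

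The lamina is a meshwork of lamin filaments under the inner nuclear membrane, built of A-type lamins from LMNA and B-type lamins from LMNB1 and LMNB2. LBR, emerin, MAN1 and the LAP2 proteins are anchored in that membrane or in the nucleoplasm and bind lamins, chromatin or both, and SUN proteins span it and reach the cytoskeleton through nesprins. Loss of lamin B1 is a widely used marker of cellular senescence in fibroblasts, whereas lamin A/C usually persists there.

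LMNB1 fell most. It was 14.4-fold lower after 3 days of ICM and 18.9-fold lower after 6 days, with TMPO (5.02-fold and 5.14-fold), LMNB2, LBR and SUN2 lower by smaller steps at both times. The SUN2 decreases fell short of the call at both times when the higher of the control libraries was left out. LMNA, EMD, LEMD3, BANF1 and SUN1 did not pass the call at either time. In the MetaICM libraries LMNB1 stood at 69.8% of control and LMNA was 1.96-fold higher. A gene was called changed when its Benjamini-Hochberg adjusted p in edgeR's quasi-likelihood test over all genes was under 0.05 and its absolute log2 fold change (log2FC) was over 0.6.

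The promoters of LMNB1, TMPO and LMNA are shown because these genes had, in turn, the 2 largest decreases and the only called increase among the 10 against control. Each is the 250 bases before a RefSeq transcription start, on the sense strand, in GRCh38.p14, with capitals marking matches to the letters searched. The counts themselves are on hg19 (GRCh37), so these coordinates are not on the scale of the gene positions given further on.

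LMNB1, chr5:126776886-126777135, plus strand: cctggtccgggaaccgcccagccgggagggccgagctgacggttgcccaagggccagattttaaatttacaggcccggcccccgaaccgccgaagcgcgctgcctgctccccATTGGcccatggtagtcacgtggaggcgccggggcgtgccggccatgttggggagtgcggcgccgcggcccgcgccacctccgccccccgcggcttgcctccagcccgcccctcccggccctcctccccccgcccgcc

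TMPO, chr12:98515323-98515572, plus strand: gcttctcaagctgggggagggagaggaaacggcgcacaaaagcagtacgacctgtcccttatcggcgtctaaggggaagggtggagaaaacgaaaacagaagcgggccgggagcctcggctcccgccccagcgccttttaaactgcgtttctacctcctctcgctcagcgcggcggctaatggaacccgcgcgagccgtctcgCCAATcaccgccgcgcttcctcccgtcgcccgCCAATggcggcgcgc

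LMNA, chr1:156082323-156082572, plus strand: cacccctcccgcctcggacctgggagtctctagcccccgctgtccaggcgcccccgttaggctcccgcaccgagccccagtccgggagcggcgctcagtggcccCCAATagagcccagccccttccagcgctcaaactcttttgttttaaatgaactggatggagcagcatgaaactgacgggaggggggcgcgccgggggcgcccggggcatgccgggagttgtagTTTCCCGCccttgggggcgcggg

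The letters of 4 short motifs of cell cycle promoters were searched on both strands of each window, which runs from 250 bases before to 50 bases after a start: the E2F sites TTTCCCGC and TTTGGCGC, the cell cycle homology region TTTGAA and the CCAAT box. The LMNB1 window above held 1 CCAAT box, read as ATTGG on this strand and beginning 138 bases before the start. TMPO held 2, beginning 47 and 15 bases before the start. The LMNA window above held a CCAAT box at 146 bases and TTTCCCGC at 23 bases before the start. These genes have windows at other RefSeq starts, which are not shown. Those of LMNB1 and LMNA held 0 matches, and that of TMPO held 2 CCAAT boxes. Of the 9 genes with a window in the table (SUN1 has none), CCAAT was found in 6, TTTCCCGC in 2 (LMNA and LEMD3), TTTGAA in 2 (LMNB2 and SUN2) and TTTGGCGC in 0. A gene was counted if any of its windows held the letters, and the 9 genes had 15 windows. Among 35116 windows in the table, the same letters occurred in 34.6%, 1.63%, 15.2% and 0.652%. Those are shares of single windows, so the counts of genes are not on the same footing. CCAAT was found in genes called lower after ICM (LMNB1, TMPO and SUN2) and in genes not called lower (EMD, LEMD3 and LMNA). It was not found in LMNB2 and LBR, which were called lower, or in BANF1, which was not. A link between these letters and the changes was not tested.

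The 8 libraries held 12095123 to 23166405 counted read pairs. HMGB2, the protein target of ICM that is lost from senescent nuclei, was lower after 3 and 6 days (log2FC −3.08 and −3.26), and CDKN1A, the cell cycle inhibitor p21, was higher (2.63 and 2.77). In MetaICM, CDKN1A was higher than control (log2FC 1.70) and HMGB2 was at −0.08. The 10 fibroblast markers summed to 37780 to 39790 CPM (counts divided by library size and expressed on the usual CPM scale, with edgeR's TMM factors) in control, 20610 to 22580 after 3 days, 15680 to 16020 after 6 days and 35360 to 35720 in MetaICM, and none was at 0 in any condition. Most of these sums came from the collagen genes COL6A3, COL1A1 and COL1A2, which averaged 16520, 8401 and 6877 CPM in control. The sums therefore do not describe each marker. The 9 markers of epithelial, blood, endothelial and muscle cells summed to 69.8 to 75.9 CPM in control, almost all of it MYH11 (65.7 and 72.8), and to 8.50 to 18.1 CPM in the other 3 conditions, with CDH5 at 0 in both 6-day and both MetaICM libraries. The control libraries were less alike than those of any other condition, with a median absolute log2 difference over genes of 0.24 against 0.12 to 0.19, and where a named call against control ended without 1 library, a value from such a fit is given. In bulk libraries, fewer cells of a type and less RNA per cell cannot be told apart.

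**Figure D1:**
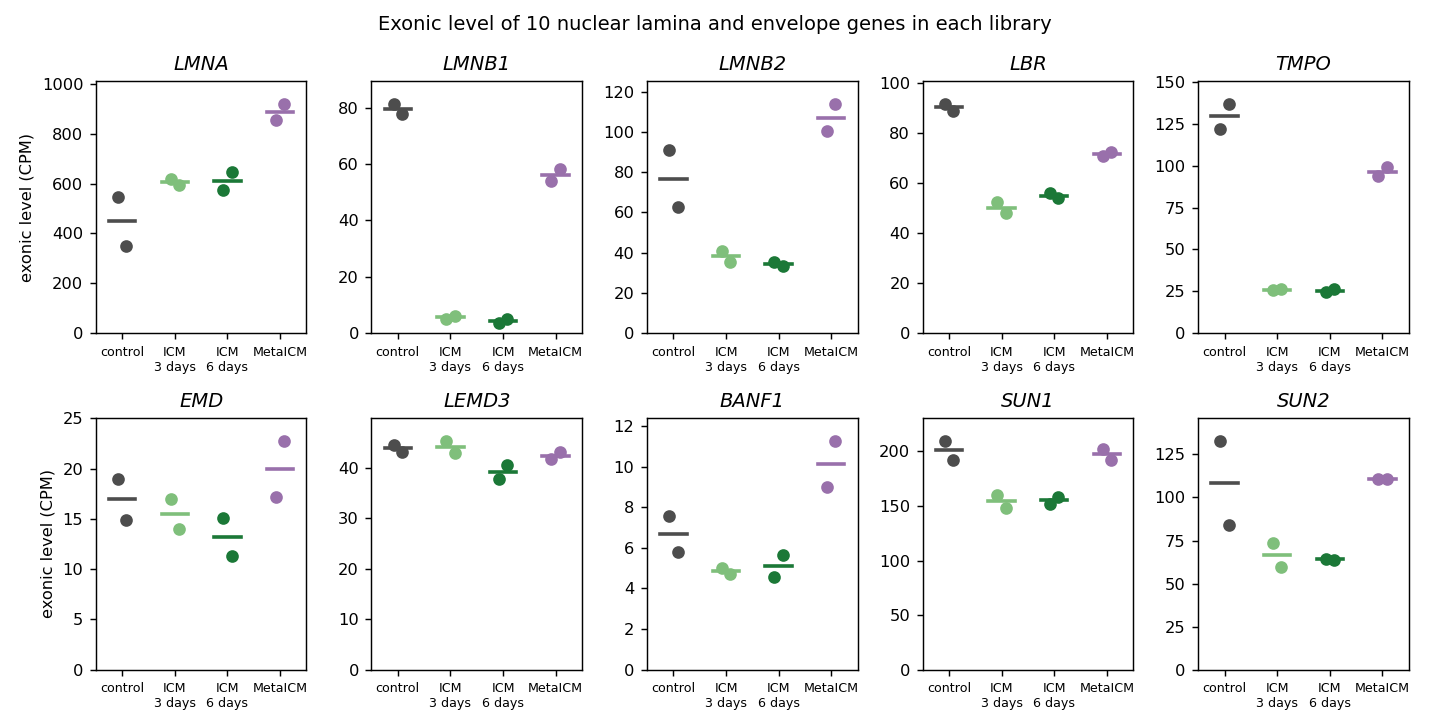
Level of each of the 10 genes (CPM on a linear axis from 0) in control, ICM 3 days, ICM 6 days and MetaICM, with 1 point per library and a bar at the mean of 2. LMNB1 and TMPO drop to low, tight values in all 4 ICM libraries and stand between the ICM and the control libraries in MetaICM, whereas the LMNA points are lowest in control.

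The lamins moved apart. LMNB1 lies on chromosome 5 (126112315 to 126172712, plus strand, hg19) and its 12 exon blocks were counted over 3481 bases. Its level was 81.4 and 77.9 CPM in the control libraries, 5.11 and 6.05 after 3 days of ICM, 3.66 and 4.83 after 6 days, and 54.0 and 58.5 in MetaICM. The raw counts behind these were 1368 and 951, 110 and 91, 68 and 91, and 1088 and 1337 read pairs. No ICM library overlapped a control or MetaICM library, while the 3-day and 6-day libraries were close to each other. The log2FC was −3.85 ± 0.16 (SE, n = 2 against 2, edgeR adjusted p = 1.67e-08) after 3 days, the 52nd lowest value of 15692 genes tested, and −4.24 ± 0.16 (edgeR adjusted p = 5.55e-08) after 6 days, the 88th lowest of 15950. Between 3 and 6 days the difference was −0.39 (95% interval −0.85 to 0.07, edgeR adjusted p = 0.233), so a further decrease was not shown. In MetaICM, LMNB1 was lower than control by a log2FC of −0.52 ± 0.11 (edgeR adjusted p = 0.00766), which is short of the fold needed for a call. The order of the levels was therefore control, MetaICM, 3 days and 6 days, with the last pair not told apart.

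LMNB2, the other B-type lamin gene, lies on chromosome 19 (2428164 to 2456957, minus strand). It was at 91.3 and 62.5 CPM in control, 40.9 and 35.5 after 3 days, 35.2 and 33.3 after 6 days, and 100.5 and 114 in MetaICM. Every ICM library was below every control library, and both MetaICM libraries were above. LMNB2 fell by a log2FC of −1.02 ± 0.17 (edgeR adjusted p = 0.000907) after 3 days and −1.18 ± 0.16 (edgeR adjusted p = 0.000282) after 6 days. Leaving out control replicate 1, the higher of the control pair, gave −0.72 and −0.90. In MetaICM the log2FC of LMNB2 was 0.46 ± 0.16 (edgeR adjusted p = 0.0526) and did not pass the call, and without control replicate 1 it was 0.75 and did.

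LMNA lies on chromosome 1 (156052337 to 156109880, plus strand), and its counts do not separate the lamin A and lamin C isoforms. Its level was 547.5 and 349 CPM in control, 619 and 593 after 3 days, 573 and 647 after 6 days, and 855 and 919.6 in MetaICM. All ICM libraries were above both controls, but the lowest of them was close to control replicate 1. The log2FC of LMNA was 0.43 ± 0.17 (edgeR adjusted p = 0.0856) after 3 days and 0.44 ± 0.18 (edgeR adjusted p = 0.0715) after 6 days, neither of which passed. These values were 0.78 and 0.78 without control replicate 1, past the call, and 0.14 and 0.16 without control replicate 2. LMNA rose in MetaICM, by 0.97 ± 0.18 (edgeR adjusted p = 0.00447), with a range of 0.69 to 1.32 when 1 library was left out.

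With all 3 lamin genes set on a common scale of CPM per kilobase of exon, LMNA gave 73.0% ± 3.73 (SD, n = 2) of the summed lamin signal in control, LMNB1 15.9% ± 3.73 and LMNB2 11.2%. After 3 days of ICM the LMNB1 share was 1.02% ± 0.15 and the LMNB2 share 5.23% ± 0.36. After 6 days these shares were 0.77% ± 0.09 and 4.72% ± 0.56, and LMNA made up 94.5% ± 0.47. In MetaICM, LMNA made up 84.6% ± 0.32, LMNB1 6.32% and LMNB2 9.05% ± 0.31. The ratio of LMNA to LMNB1 per kilobase was 3.80 and 5.70 in the control libraries, 83.2 to 102.6 after 3 days, 113.6 to 132.8 after 6 days and 13.3 to 13.4 in MetaICM. The LMNB1 share in MetaICM was thus below both controls and above every ICM library. Both the share and the ratio also move with LMNA, which was 1.96-fold higher in MetaICM than in control. LMNB1 itself stood at 69.8% of control in MetaICM and was not called. An exact two-sided permutation test of 2 libraries against 2 cannot go below p = 0.333, which every comparison of the LMNB1 share gave. These are shares of exonic reads of the nascent fraction, and say nothing of protein.

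**Figure D2:**
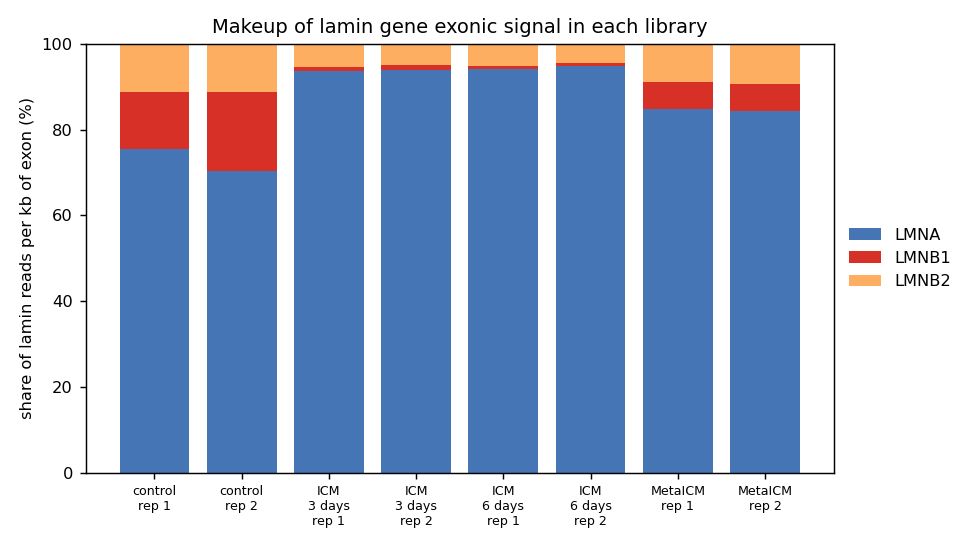
Share (%) of LMNA, LMNB1 and LMNB2 in the summed lamin reads per kilobase of exon, with 1 stacked bar per library. The LMNB1 band is 13.3% and 18.5% in the control bars, 1.13% or less in the 4 ICM bars and 6.32% and 6.33% in the MetaICM bars.

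Among the lamina-binding proteins, TMPO and LBR fell and EMD and LEMD3 did not pass. TMPO encodes the LAP2 proteins, of which LAP2β sits in the inner membrane and binds B-type lamins and LAP2α is nucleoplasmic and binds A-type lamins. The gene lies on chromosome 12 (98909351 to 98944157, plus strand), 481 of its 6993 exon bases are shared with TMPO-AS1 on the other strand, and reads of the pair cannot be told apart there because strand was not used. TMPO was at 121.9 and 136.9 CPM in control, 25.6 and 26.3 after 3 days, 24.8 and 26.0 after 6 days, and 93.6 and 99.4 in MetaICM. The 4 ICM libraries lay within 2 CPM of each other and far below control. The log2FC was −2.33 ± 0.14 (edgeR adjusted p = 1.62e-07) after 3 days, −2.36 ± 0.13 (edgeR adjusted p = 3.38e-07) after 6 days and −0.44 ± 0.11 (edgeR adjusted p = 0.0170) in MetaICM, the last short of the fold for a call.

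LBR, the lamin B receptor, which also carries a sterol reductase domain and ties heterochromatin to the envelope, lies on chromosome 1 (225589204 to 225616557, minus strand). It was at 91.6 and 88.8 CPM in control, 52.3 and 47.9 after 3 days, 56.0 and 53.9 after 6 days, and 70.6 and 72.3 in MetaICM. No conditions overlapped, and the 6-day libraries lay just above the 3-day libraries (log2FC 0.12, 95% interval −0.08 to 0.33, edgeR adjusted p = 0.423). LBR fell by a log2FC of −0.86 ± 0.13 (edgeR adjusted p = 0.000373) after 3 days and −0.73 ± 0.11 (edgeR adjusted p = 0.000522) after 6 days, and was at −0.35 ± 0.10 (edgeR adjusted p = 0.0319) in MetaICM.

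EMD (emerin, chromosome X, 153607655 to 153609883) and LEMD3 (MAN1, a LEM-domain protein that restrains SMAD signalling, chromosome 12, 65563363 to 65642135) share the LEM domain with LAP2. EMD was at 19.0 and 14.9 CPM in control, 17.0 and 13.96 after 3 days, 15.1 and 11.3 after 6 days, and 17.2 and 22.8 in MetaICM, with overlap between conditions. LEMD3 was at 44.5 and 43.2 CPM in control, 45.4 and 42.9 after 3 days, 37.7 and 40.6 after 6 days, and 41.7 and 43.1 in MetaICM. The 95% interval of the LEMD3 log2FC was −0.29 to 0.29 after 3 days, −0.45 to 0.09 after 6 days and −0.32 to 0.19 in MetaICM, which leaves no room for a change of the size seen for TMPO. For EMD these intervals were −0.53 to 0.26, −0.79 to 0.04 and −0.17 to 0.60.

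BANF1 encodes BAF, a small protein that crosslinks chromatin and binds LEM domains when the envelope reforms after mitosis. It lies on chromosome 11 (65769550 to 65771620), shares 79 of 1155 exon bases with EIF1AD on the other strand, and was the least counted of the 10 genes, with 71 to 258 read pairs per library. BANF1 was at 7.56 and 5.82 CPM in control, 5.02 and 4.72 after 3 days, 4.58 and 5.63 after 6 days, and 8.98 and 11.3 in MetaICM. The MetaICM libraries were the highest, and all 4 ICM libraries lay below the lower control. The log2FC was −0.47 (95% interval −0.99 to 0.05), −0.41 (−0.91 to 0.09) and 0.57 (0.13 to 1.02), and none passed the call. Without control replicate 1 the MetaICM value was 0.78 and passed.

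SUN1 and SUN2 cross the inner membrane and bind nesprins in the space between the membranes. SUN2 (chromosome 22, 39130739 to 39152003, minus strand) was at 133 and 84.1 CPM in control, 73.4 and 59.7 after 3 days, 64.6 and 63.7 after 6 days, and 110.7 and 110.6 in MetaICM. Both ICM conditions lay below both controls. SUN2 fell by a log2FC of −0.71 ± 0.19 (edgeR adjusted p = 0.0134) after 3 days and −0.77 ± 0.18 (edgeR adjusted p = 0.00562) after 6 days, but these calls rest on 1 control library. Without control replicate 1 the values were −0.35 and −0.42, short of the fold needed, and without ICM 3 days replicate 2 the 3-day value was −0.58. SUN1 (chromosome 7, 855194 to 914571) was at 209.9 and 192.3 CPM in control, 160.5 and 148.4 after 3 days, 152 and 158.6 after 6 days, and 202.6 and 192.5 in MetaICM. Its log2FC of −0.39 ± 0.12 (edgeR adjusted p = 0.0308) after 3 days and −0.39 ± 0.11 (edgeR adjusted p = 0.0153) after 6 days had an adjusted p under 0.05 but not the fold needed for a call, and in MetaICM it was −0.04.

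In counts, 5 of the 10 genes were lower and 0 higher after 3 days, beside 13.2% of all genes tested called lower and 8.85% called higher. After 6 days 5 were lower (LMNB1, LMNB2, LBR, TMPO and SUN2, as after 3 days) and 0 higher, beside 17.2% lower and 13.3% higher. With library totals in place of TMM, the calls over all genes after 3 days split into 1785 higher and 1767 lower instead of 1389 and 2067, and 5 of the 10 genes were still lower. The median log2FC of the 10 genes was −0.59 and −0.57, where that of all genes tested was 0.01 and 0.00. In MetaICM 1 gene, LMNA, was higher and 0 were lower, beside 7.41% of all genes higher and 8.99% lower, and the median of the 10 was −0.02. DESeq2 gave the same counts in each direction, and 7, 7 and 6 of the 10 genes had an unadjusted p under 0.05. These comparisons share the control libraries.

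**Figure D3:**
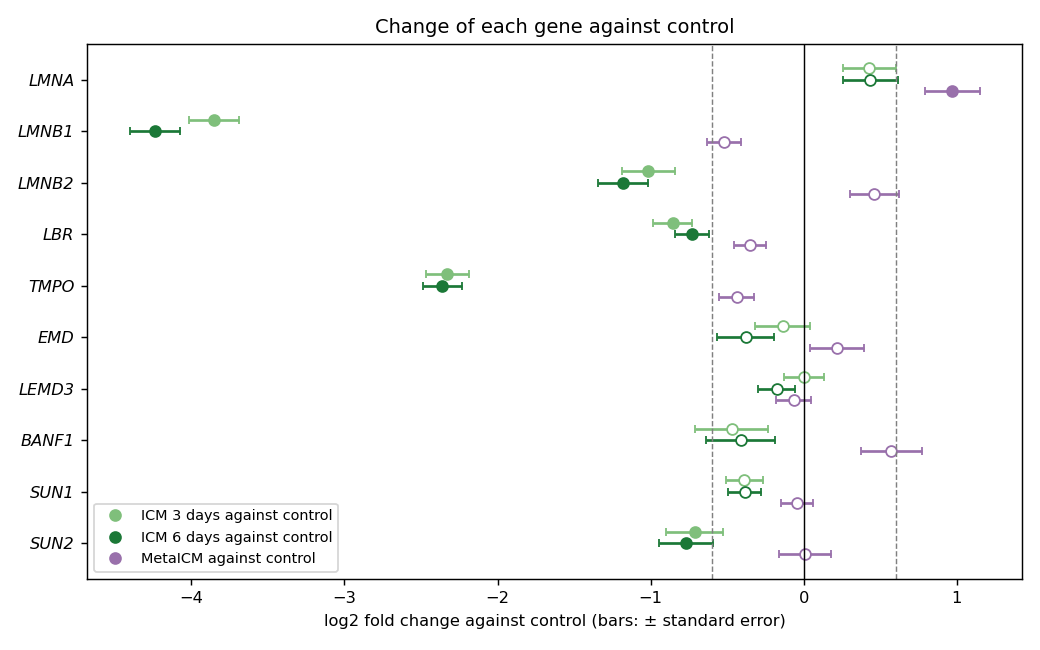
log2FC against control of each gene for ICM 3 days, ICM 6 days and MetaICM (x axis, bars ± SE), with filled points for called genes and dashed lines at ±0.6. LMNB1 and TMPO lie at −2.33 or lower after ICM and between −0.6 and 0 in MetaICM.

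Between 3 and 6 days of ICM, 0 of the 10 genes were called by edgeR or by DESeq2, beside 3.53% of all genes higher and 4.54% lower, and 0 had an unadjusted p under 0.05. The largest difference was that of LMNB1 (−0.39), followed by EMD (−0.25, 95% interval −0.58 to 0.08). LMNA, SUN1 and TMPO differed by 0.00, 0.00 and −0.04, with intervals from −0.28 to 0.20 at the widest. A difference between the 2 times was thus not shown for any of the 10 genes.

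MetaICM was higher than ICM 6 days for LMNB1, TMPO, LMNB2, BANF1 and SUN2, which makes 5 of the 10 genes, beside 15.7% of all genes higher and 12.0% lower. The log2FC was 3.72 ± 0.12 for LMNB1 (edgeR adjusted p = 4.01e-16), 1.92 ± 0.08 for TMPO (edgeR adjusted p = 2.78e-14) and 1.64 ± 0.08 for LMNB2 (edgeR adjusted p = 4.70e-13). BANF1 was at 0.99 ± 0.17 (edgeR adjusted p = 5.05e-05) and SUN2 at 0.78 ± 0.07 (edgeR adjusted p = 9.70e-09). LMNA (0.54), LBR (0.37), SUN1 (0.34) and EMD (0.5987) were below the fold needed for a call although their adjusted p was under 0.05, and LEMD3 was at 0.11. EMD lay at the edge: it passed with a filter of at least 10 counts in every library (0.6038), without ICM 6 days replicate 1 (0.82) and without MetaICM replicate 1 (0.79), and was at 0.38 without MetaICM replicate 2. LMNA passed without ICM 6 days replicate 2 (0.635). Against ICM 3 days the same 5 genes were called higher, beside 13.1% of all genes higher and 10.3% lower, with 3.34 ± 0.13 for LMNB1 (edgeR adjusted p = 8.13e-11) and 1.89 ± 0.09 for TMPO (edgeR adjusted p = 1.04e-09). Both comparisons use the MetaICM libraries.

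The 5 genes whose log2 CPM followed LMNB1 most closely over the 8 libraries, of 16590 genes compared, were NUF2 (Pearson r = 0.9999), PRICKLE1 (0.9994), ESPL1 (0.9991), NCAPG (0.9986) and ANLN (0.9986). NUF2 is a kinetochore subunit, ESPL1 is separase, NCAPG is a condensin subunit and ANLN is the cytokinesis scaffold anillin, while PRICKLE1 acts in planar cell polarity. NUF2 averaged 28.9 CPM in control, 1.44 after 3 days, 1.01 after 6 days and 19.5 in MetaICM. PRICKLE1 covered a much smaller range, from 105.3 CPM in control to 50.8, 47.5 and 96.1. Among the 10 genes, r with LMNB1 was 0.995 for TMPO, 0.959 for SUN1, 0.928 for LBR, 0.911 for LMNB2, 0.881 for SUN2, 0.765 for BANF1, 0.606 for EMD, 0.423 for LEMD3 and −0.033 for LMNA. These r describe 8 libraries that form 4 conditions and share their depth and scaling, so a high r mostly reflects how the condition means are spaced.

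Proliferation markers moved in the same libraries. Their 10 genes (MKI67, TOP2A and others) summed to 1925 to 1974 CPM in control, 190.1 to 203.1 after 3 days, 165.2 to 165.8 after 6 days and 1099 to 1108 in MetaICM, and none was at 0. Of these, 9 were lower after 3 days and 9 after 6 days, with a median log2FC of −3.11 and −3.02, and 3 were lower in MetaICM, with a median of −0.49. MKI67, the Ki-67 antigen, had the largest decrease of the 10 after 6 days. It went from 544 and 602 CPM in control to 11.9 and 13.1, and was at 264.6 and 263.2 in MetaICM. PCNA moved least and was not called after 6 days, from 63.6 and 60.1 CPM in control to 49.5 and 46.6. The part of proliferation in the levels of LMNB1 and TMPO was not tested.

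**Figure D4:**
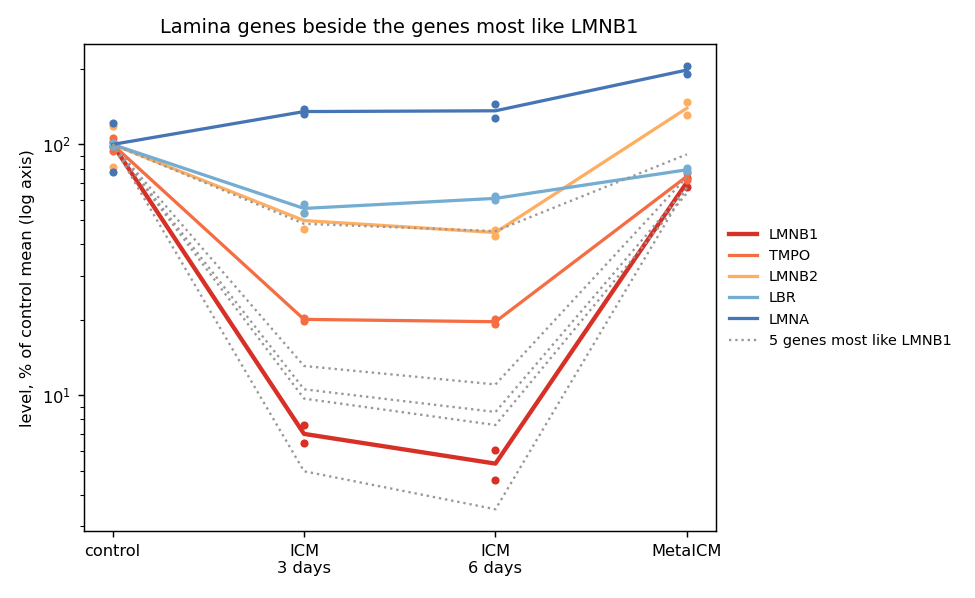
Mean level in each condition as a percentage of the control mean (log axis) for LMNB1, TMPO, LMNB2, LBR and LMNA (solid, points are libraries) and for the 5 genes most like LMNB1 (dotted), with lines drawn only to guide the eye between conditions. LMNB1 runs among the dotted lines, LMNB2 and LBR fall less, and LMNA lies above 100% in the 6 libraries that are not controls.

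The other genes of the nuclear envelope, from lists drawn up by function, were taken through the same fits. Of all genes tested, 13.2% were lower and 8.85% higher after 3 days, 17.2% and 13.3% after 6 days, and 8.99% and 7.41% in MetaICM, and the counts below stand beside those shares as descriptions of short lists. The nesprins are the outer membrane partners of SUN1 and SUN2. After 6 days 2 of the 4 were lower and 0 higher: SYNE2 (nesprin-2) at −3.05 ± 0.12 (edgeR adjusted p = 6.26e-08) and SYNE3 at −1.25 ± 0.13 (edgeR adjusted p = 3.87e-05). SYNE2 was at 213 and 218.5 CPM in control, 23.9 and 28.6 after 3 days, 25.2 and 27.4 after 6 days, and 165.8 and 148.6 in MetaICM, and its log2FC lay between those of TMPO and LMNB1 both after ICM and in MetaICM. After 3 days the same 2 were lower, and SYNE1, named after its values were seen, was higher (log2FC 0.77). In MetaICM 0 of 4 were called by edgeR or DESeq2, with SYNE2 at −0.47 and SYNE3 at 0.38, and 3 had an unadjusted p under 0.05.

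The list of other inner membrane and LEM-domain genes also takes in torsins and their activators, and 11 of its 12 genes were tested. Of these, 4 were lower and 1 higher after 6 days, with a median log2FC of −0.46. NEMP1, an inner membrane protein that stiffens the envelope, was at −1.38 ± 0.15 (edgeR adjusted p = 4.56e-05), from 40.3 and 44.2 CPM in control to 14.8 and 17.9. NRM (nurim) was at −1.13 ± 0.25 (edgeR adjusted p = 0.00511; without ICM 6 days replicate 1 it was −1.10 and the adjusted p was over the threshold), from 5.42 and 4.26 CPM to 2.21 and 2.28, a count to be read with care because the gene is annotated on 7 reference sequences. TOR1AIP2, an activator of torsin ATPases, was higher by 0.71 ± 0.12 (edgeR adjusted p = 0.000815). After 3 days 3 were lower and 0 higher, with a median of −0.12. In MetaICM 0 of 11 were called by edgeR or DESeq2, with NEMP1 at −0.55 and NRM at 0.47, and 4 had an unadjusted p under 0.05.

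The list of 6 lamin processing genes includes enzymes that farnesylate and trim prelamins. It gave 0 calls by edgeR or DESeq2 after 3 and 6 days (1 and 2 with an unadjusted p under 0.05), with a median of 0.02 and 0.05. In MetaICM 1 was higher, ICMT (0.63, and 0.52 and not called without control replicate 2), the methyltransferase that acts on farnesylated proteins, named after its values were seen. Of 6 chromatin factors bound at the lamina, 2 were lower and 0 higher after 6 days. CBX5 (HP1α, which binds LBR) was at −0.93 ± 0.15 (edgeR adjusted p = 0.000665) and CBX3 (HP1γ) at −0.62 ± 0.12 (edgeR adjusted p = 0.00204), the latter −0.58 and not called without control replicate 2. After 3 days 1 was lower, CBX5 (−1.07), and 1 higher, the histone deacetylase HDAC3, named after its values were seen (0.61, and 0.39 and not called without control replicate 2), with CBX3 at −0.41. CBX5 was at 147.8 and 199.2 CPM in control, 76.3 and 89.9 after 3 days, 94.2 and 89.6 after 6 days, and 107.6 and 115.5 in MetaICM, where it was called lower (−0.65 ± 0.14, edgeR adjusted p = 0.00900). That MetaICM call rests on single libraries: it was −0.41 without control replicate 2 and −0.59 without MetaICM replicate 1, neither of them called.

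Of 30 nuclear pore genes 29 were tested, and 10 were lower after 3 days and 10 after 6 days, with 0 and 1 higher and a median of −0.37 and −0.34. The largest decreases after 6 days were those of NDC1, a membrane nucleoporin that anchors the pore (−1.29 ± 0.12, edgeR adjusted p = 1.60e-05), and of the inner ring nucleoporin NUP155 (−1.12 ± 0.11, edgeR adjusted p = 3.11e-05). NDC1 was at 66.2 and 63.3 CPM in control and at 26.7 in both 6-day libraries. AAAS (aladin) was higher, at 0.67 ± 0.15 (edgeR adjusted p = 0.00507), but at 0.49 without control replicate 2 and 0.57 without ICM 6 days replicate 2, short of the fold needed. In MetaICM 3 were lower and 1 higher, with a median of −0.27, near or below the shares for all genes. With 1 library left out, the count in MetaICM was 1 to 5 lower (1 without control replicate 2 or MetaICM replicate 2, 5 without control replicate 1) and 0 to 2 higher.

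Of 12 genes that act when the envelope is taken apart and resealed in mitosis, 5 were lower after 3 days and 5 after 6 days, and 0 were higher. These were mitotic kinases and a cyclin: NEK2 (−4.51 ± 0.27 after 6 days, edgeR adjusted p = 7.53e-07) and CDK1 (−3.86 ± 0.18, edgeR adjusted p = 1.55e-07), with PLK1, CCNB1 and VRK1, the kinase of BAF, named after their values were seen. The other 7 genes of that list, which include the ESCRT and RAN genes, were between −0.18 and 0.35 after 6 days. In MetaICM 1 of the 12, PLK1 (−0.64), was lower and 0 were higher. The PLK1 call ended without control replicate 1 (−0.58, short of the fold), MetaICM replicate 1 (−0.62) or MetaICM replicate 2 (−0.64). DESeq2 gave the same counts in each direction for these 6 lists against control. The lists are a description, and their medians are set beside a median of 0.00 for all genes after 6 days.

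**Figure D5:**
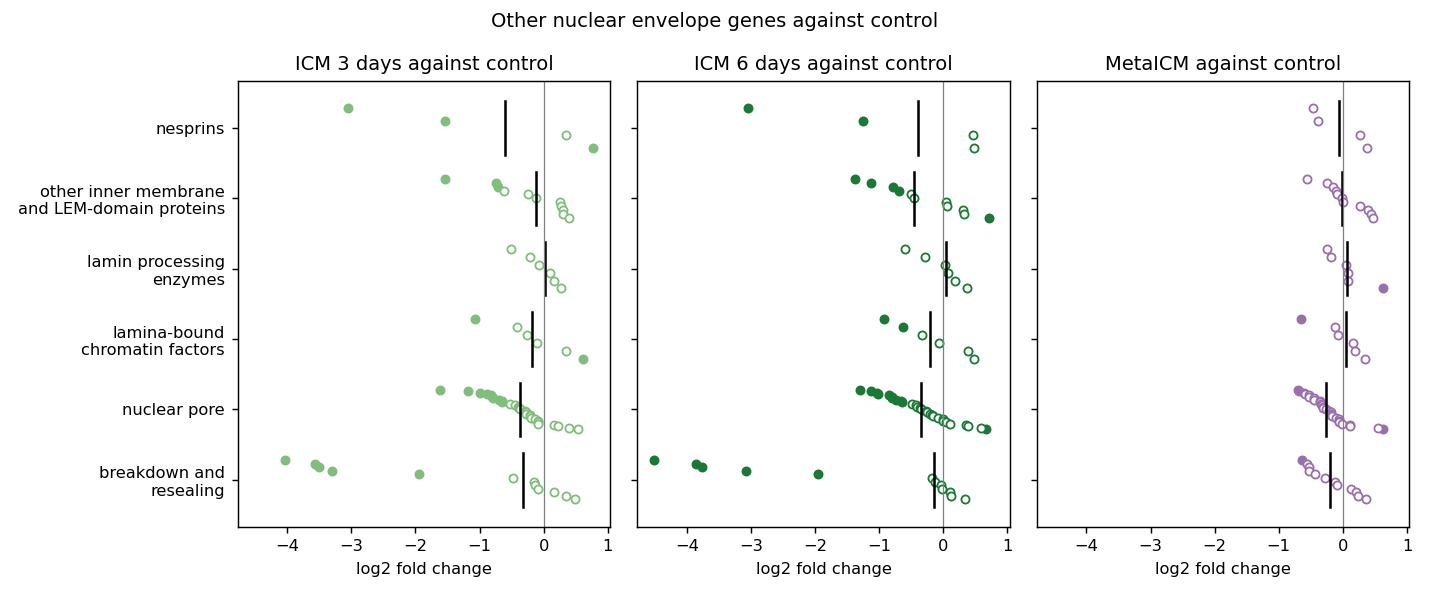
log2FC against control for the genes of 6 other nuclear envelope lists (rows) in ICM 3 days, ICM 6 days and MetaICM (panels, common x axis), with filled points for called genes and a black bar at the list median. The lowest points are the 4 mitotic kinase and cyclin genes of the breakdown list and SYNE2, and in MetaICM all points lie between −0.70 and 0.63.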

How the data were processed

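Factory RNA-Seq libraries of IMR90 cells (control, ICM 3 days, ICM 6 days and MetaICM, 2 each) were grouped by their titles. The authors aligned reads to hg19 (GRCh37) with STAR (version 2.6.0c, submitters' processing notes) and deposited raw counts of read pairs per gene, summed over RefSeq exons with featureCounts (version 1.6.3, file headers) without strand, from pairs with both ends mapped and not chimeric. Exonic counts hold spliced and unspliced RNA alike, and isoforms are not separated. The study's nascent RNA analysis used intronic counts, which were not analysed here. The labels also name poly(A) selection.

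Each pair of conditions was fitted on its own 4 libraries in edgeR (version 4.0.16, R 4.3.3), after TMM scaling and filterByExpr (at least 10 counts), and tested by quasi-likelihood. P-values were adjusted over all genes tested (Benjamini-Hochberg). SE is the absolute log2FC over the square root of F. CPM uses TMM over all 8 libraries, and correlations use log2 CPM with a prior count of 2. Scripts were tested on simulated data. Alternatives were DESeq2 (version 1.42.0), other scaling, filters and thresholds, thinning to 12095123 pairs, a replicate block and leaving out each library. The smallest library total limits BANF1 most. Promoter sequences are from RefSeq (GRCh38.p14) and positions from the count tables.

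The 10 genes and the lists were chosen with earlier results of these data known. Named genes are the 10, and from each other list the called genes with the largest change after 6 days, at most 2 in each direction, without overlap of libraries.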

Additional observations from a re-analysis of the deposited data

How the results depend on the processing

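The counts of called genes after 3 and 6 days of ICM stayed at 4 to 6 under every alternative run, and LMNB1, LMNB2, LBR and TMPO were called lower under each alternative of scaling, filter, tool and left-out library. Without control replicate 1 the 6-day count was still 5, but LMNA (0.78, higher) took the place of SUN2 (−0.42). For MetaICM against control the count of 1 became 2 with library totals (BANF1 added), 4 with no minimum log2FC, and 1 to 3 with 1 library left out, 3 being without control replicate 1. With no minimum log2FC, 9 genes were called for MetaICM against ICM 6 days and 8 against ICM 3 days. Leaving out 1 library gave 5 to 6 and 5 to 5 there, 4 to 5 for 3 days against control, 5 to 5 for 6 days and 0 to 0 between 3 and 6 days. Leaving out each library for the other envelope lists was chosen after seeing the data. It added calls for genes short of the fold otherwise: ICMT after 3 days (−0.63 without control replicate 2, −0.76 without ICM 3 days replicate 1), RCE1 after 6 days (−0.76 without control replicate 2), NEK2 in MetaICM (−0.68 without control replicate 2), and in MetaICM without control replicate 1 NRM (0.66), NEMP1 (−0.63), VRK1 (−0.70) and HDAC3 (0.61), among others. In those fits a lone library is assumed to vary as the other condition's. The LMNB1 share in MetaICM was 6.25% after thinning. The cause of these moves was not tested.

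Values that changed sign were all small and not called in the fits of all 4 libraries. LEMD3 after 3 days was −0.01 with DESeq2 (−0.006327) and with its size factors (−0.006318), −0.002657 with at least 10 counts per library, −0.01631 thinned and −0.03028 to 0.03277 with a library left out. Between 3 and 6 days SUN1 was 0.00172 with DESeq2, 0.001732 with its size factors, 0.01106 with upper-quartile factors, 0.006997 with all genes and 0.003965 with 8 libraries in 1 fit; LMNA was −0.02673 with library totals and −0.001838 thinned; thinned TMPO was 0.02723 and BANF1 −0.006167. SUN2 in MetaICM was −0.007884 with upper-quartile factors. With a library left out, the ranges were −0.10 to 0.20 for BANF1, −0.0913 to 0.08673 for LMNA, −0.04194 to 0.04345 for SUN1 and −0.1879 to 0.08231 for SUN2 between 3 and 6 days, −0.2902 to 0.04634 for EMD after 3 days, and −0.09598 to 0.01314 for SUN1 and −0.2731 to 0.3695 for SUN2 in MetaICM.

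The replicate numbers are only shared numbers: deviations of same-numbered libraries correlated at −0.112 to 0.172. A replicate block gave the same counts of called genes (5, 5, 1, 0, 5 and 5), and turned 1 sign, that of LMNA between 3 and 6 days (−0.0004037).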
